A study of Rattus norvegicus with 40 samples.

Results

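The hippocampus of rats exposed to a blast was compared with that of sham-treated rats 12 months after the exposure. The comparison used 10 of the 40 RNA-seq libraries of the series, 5 labelled blast-exposed and 5 labelled sham, chosen by their tissue and treatment labels. The other 30 libraries came from the amygdala, anterior cortex and cerebellum, with 10 libraries for each region. Strain, sex, age, genotype and the pressure or number of blasts were not given in the sources used here. Libraries are named by their titles, Hip_4, Hip_8, Hip_22, Hip_88 and Hip_666 for blast and Hip_11, Hip_13, Hip_14, Hip_15 and Hip_33 for sham, and values listed for each library follow this order. The labels do not say that each library is a separate animal, so the p-values measure only the spread between these libraries.

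The hippocampus holds the dentate gyrus, whose granule cells send mossy fibres to the CA3 pyramidal cells, which in turn project to CA1. It is dense in receptors for stress steroids and is needed for forming new memories. It borders the ventricles, which are lined by ciliated ependymal cells and hold the choroid plexus, the epithelium that makes cerebrospinal fluid. A blast wave can injure axons, vessels and glia, and late effects on inflammation, myelin and stress signalling are the usual questions of such studies.

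The libraries held 11589358 to 19156693 counts. The tissue label was checked with marker genes, some of which separated all 10 from the other regions. C1ql2, a synaptic organizer made by dentate granule cells, was at 127 to 245 CPM (counts scaled to the total of each library). In the other regions no library was above 25.2 CPM for C1ql2. Neurod6, a transcription factor of pyramidal neurons, was at 135.7 to 196 CPM against at most 44.3 CPM elsewhere. Blast Hip_8, blast Hip_666 and sham Hip_11 stood apart by choroid plexus genes and are called choroid plexus-rich here. The summed level of the 18 choroid plexus genes tested was 11900, 9940 and 7098 CPM in these 3 libraries and 230.3 to 595.3 CPM in the other 7, and 1 of the 18 had no count in some library. Sham Hip_14 stood apart in another way: its shortest genes were high and its longest genes low, with a long minus short difference of -0.79 on the log2 scale against -0.05 to 0.22 in the other 9. Its weight in a fit that estimates library quality was 0.1265, against 0.96 to 1.62 in the others. For most gene lists described, medians without some of these 4 or without another single library are given beside that of all 10. In bulk tissue, fewer cells of a type and less RNA per cell cannot be told apart.

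No gene differed between blast and sham in the hippocampus at an adjusted p under 0.05 in edgeR's quasi-likelihood test with Benjamini-Hochberg adjustment. Of 15059 genes tested, 0 were called (0%), and the smallest adjusted p was 0.998. At an unadjusted p under 0.05, 146 genes were higher in blast (0.97%) and 138 lower (0.916%), 284 in all, where 5% of the genes would be 753. DESeq2 called 1 gene and had 431 at an unadjusted p under 0.05, and the authors' deposited table called 1 and had 376. In both, the called gene was Map3k7, described further on. Without sham Hip_11, 494 genes were higher and 172 lower at an unadjusted p under 0.05, and without sham Hip_14 there were 624 in all, with 0 called each time. Every blast library lay above every sham library for 19 genes (0.126%) and below for 22 (0.146%), and 49% of all genes tested had a log2 fold change above 0, with a median of -0.00. The 95% interval of the log2 fold change lay between -1 and 1 for 13098 genes (87%), so for these a 2-fold difference in either direction was outside the interval. The biological coefficient of variation was 23.9%, and 15.4% without the 4 libraries named above.

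The 20 genes with the smallest p-values, 10 higher and 10 lower in blast, had unadjusted p-values from 0.000326 to 0.00897 and an adjusted p of 0.998 each in edgeR's quasi-likelihood test. They fell into 3 kinds. For 8 of them the groups did not overlap, with 3 higher and 5 lower in blast. The genes were chosen by p in these same libraries, so such separation partly follows from the choice. Another 8 varied among libraries of the same group more than 95% of all genes did, and 4 had neither property.

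Pld1 had the smallest p among the genes higher in blast. It codes for phospholipase D1, which makes phosphatidic acid from phosphatidylcholine in vesicle traffic and signalling (ENSRNOG00000028156, chromosome 2, 113652348 to 113849403, in the coordinates of the deposited table). Its level was 29.2, 30.4, 23.8, 25.9 and 25.1 CPM in the 5 blast libraries, and 21.7, 20.3, 16.5, 18.1 and 16.4 CPM in the 5 sham libraries. The lowest blast library, blast Hip_22, stood above the highest sham library, sham Hip_11. The means were 26.9 ± 2.79 CPM in blast and 18.6 ± 2.36 CPM in sham (SD, n = 5 each). The log2 fold change was 0.53 ± 0.11 (SE), with a 95% interval of 0.29 to 0.78 and an adjusted p of 0.998 by edgeR. Over 19 other settings of the fit it was 0.46 to 0.60, and the adjusted p was 0.172 to 1. In the other regions Pld1 had log2 fold changes of -0.02 ± 0.11 (amygdala), 0.03 ± 0.20 (anterior cortex) and 0.07 ± 0.13 (cerebellum).

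Of the 35 genes of phospholipase D and phosphoinositide signalling tested, 21 were higher and 14 lower in blast, with a median of 0.02 against -0.00 over all genes. Pld1 was the 1 member at an unadjusted p under 0.05. Its paralog Pld2 was at 53.8 ± 8.98 CPM in blast and 46.6 ± 5.63 CPM in sham, a log2 fold change of 0.21 ± 0.12, and Pld4 had 0.19 ± 0.12. The values of both overlapped between groups.

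Fndc7, which codes for a protein with fibronectin type III domains, was at 5.63, 4.68, 8.63, 4.99 and 4.54 CPM in the 5 blast libraries. In the 5 sham libraries it was at 3.38, 3.23, 1.37, 2.69 and 3.87 CPM. All blast libraries were above all sham libraries, and blast Hip_22 was high among the blast libraries. The log2 fold change was 0.98 ± 0.29, and 0.78 without blast Hip_22. Wdr93, a WD repeat gene near the detection floor, was at 1.28 to 1.97 CPM in blast and 0.51 to 1.09 CPM in sham, a log2 fold change of 0.90 ± 0.27.

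Utp18 had the smallest p among lower genes whose groups did not overlap. It codes for a part of the small subunit processome, which cuts and folds the precursor of 18S ribosomal RNA (ENSRNOG00000002644, chromosome 10, 81562409 to 81587858). Its level was 22.9, 22.1, 25.8, 25.4 and 23.4 CPM in the 5 blast libraries, and 27.0, 31.1, 32.1, 29.4 and 29.8 CPM in the 5 sham libraries. The highest blast library stayed under the lowest sham library, and the spread within groups was small. The log2 fold change was -0.32 ± 0.08 (adjusted p = 0.998, edgeR), and -0.35 to -0.27 over the other settings. Of 33 genes for ribosome biogenesis tested, 9 were higher and 24 lower in blast, with a median of -0.03. Tbl3, another processome gene, had -0.19 ± 0.09, and Noc4l, which acts in nucleolar assembly of the small subunit, had -0.16 ± 0.09, with overlapping groups for both.

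Cntn4 codes for contactin-4, an adhesion molecule of axons (ENSRNOG00000005652, chromosome 4, 138269142 to 138787525). It was at 14.8, 14.05, 14.9, 14.8 and 15.2 CPM in the 5 blast libraries, and at 16.4, 19.3, 18.7, 19.2 and 20.01 CPM in the 5 sham libraries. The blast libraries lay within about 1 CPM of each other, all under the sham libraries. The log2 fold change was -0.34 ± 0.09 (adjusted p = 0.998, edgeR), and it did not shrink without the 4 libraries that stood apart, at -0.39. Among 28 genes of axon guidance and contactins tested, 16 were higher and 12 lower, with a median of 0.02 that became -0.13 without sham Hip_14. The related Cntn2 had 0.28 ± 0.22, opposite in sign to Cntn4.

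Nbl1 codes for a secreted antagonist of bone morphogenetic proteins (BMPs). It was at 78.7 to 92.4 CPM in the blast libraries and 92.8 to 142 CPM in the sham libraries, and its log2 fold change was -0.37 ± 0.12. The highest blast library (blast Hip_4) and the lowest sham library (sham Hip_11) nearly touched. Sham Hip_14 was the library at 142 CPM, and without it the log2 fold change of Nbl1 was -0.26, the weakest over the other settings. Of 37 BMP and TGF-beta genes tested, 18 were higher and 19 lower, with a median of -0.03. Bmp6, a ligand, had 0.33 ± 0.18, and Tgfb1, the ligand of the TGF-beta receptors, had 0.34 ± 0.14 and an unadjusted p of 0.0318. Tgfb1 had 0.14 without the 3 choroid plexus-rich libraries.

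Tamm41, a mitochondrial enzyme on the path to cardiolipin, and Spire2, which nucleates actin filaments, also had blast libraries all under the sham libraries. Tamm41 was at 6.97 to 10.1 CPM in blast and 10.8 to 11.9 CPM in sham (-0.39 ± 0.13). Spire2 was at 18.6 to 21.7 CPM in blast and 22.5 to 28.6 CPM in sham (-0.30 ± 0.10). Their adjusted p was 0.998 each in edgeR's quasi-likelihood test.

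**Figure D1:**
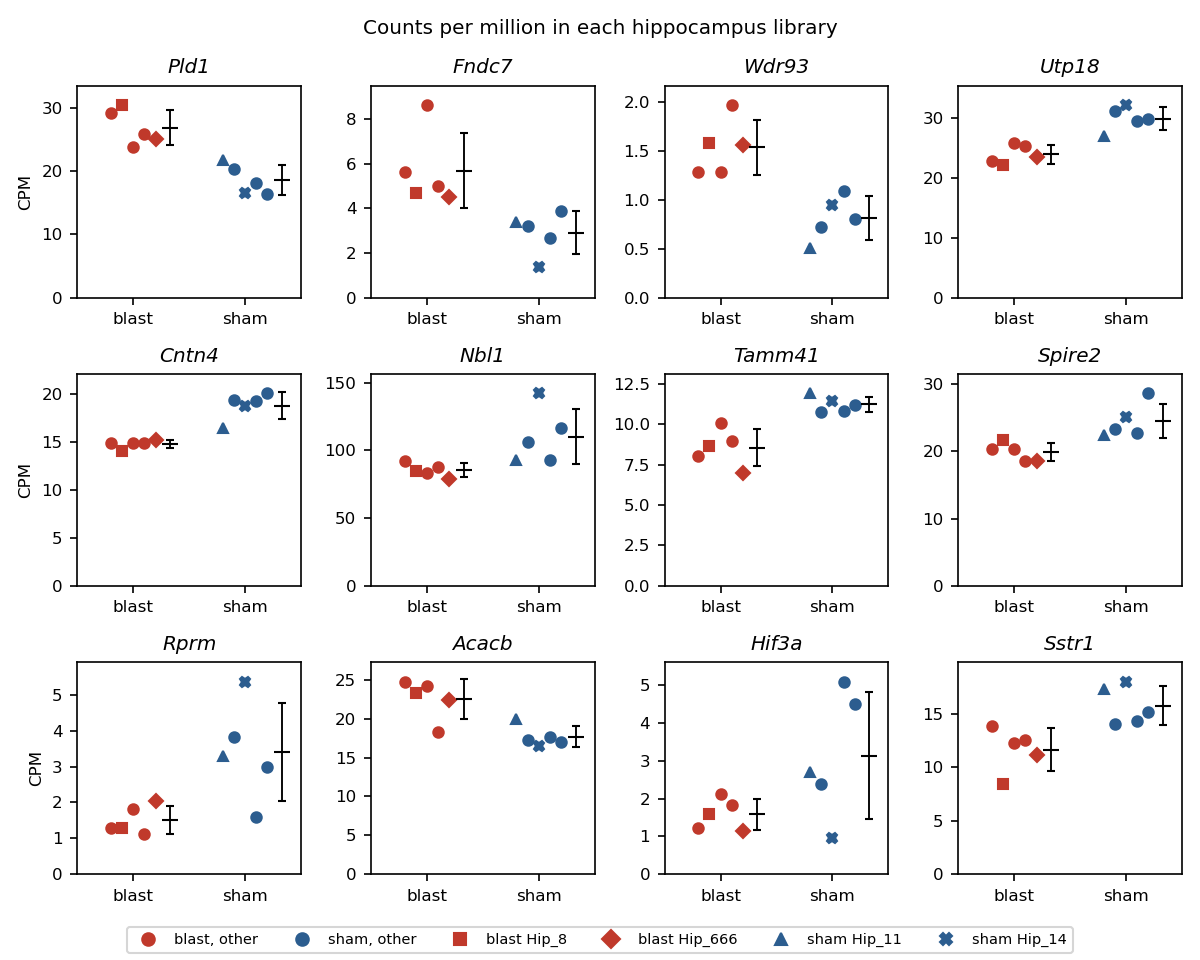
CPM (y axes, from 0) of 12 genes in each hippocampus library. Points are libraries, squares, diamonds and triangles the 3 choroid plexus-rich ones and crosses sham Hip_14, and black bars are mean ± SD (n = 5). Blast and sham points do not overlap for Pld1, Fndc7, Wdr93, Utp18, Cntn4, Nbl1, Tamm41, Spire2 and Sstr1, and they do for Rprm, Acacb and Hif3a.

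Rprm, Acacb, Rbm46 and Csf2rb were the 4 genes with overlapping groups and an ordinary spread. Rprm codes for Reprimo, a cell cycle inhibitor induced by p53. It was at 1.28, 1.28, 1.80, 1.115 and 2.03 CPM in the 5 blast libraries, and at 3.30, 3.83, 5.37, 1.602 and 2.99 CPM in the 5 sham libraries. Sham Hip_15 lay among the blast libraries and the other sham libraries above them, for a log2 fold change of -1.19 ± 0.32. In the amygdala and anterior cortex the same gene had median levels of 25.9 and 23.3 CPM over 10 libraries, so its level in the hippocampus was low throughout, and its log2 fold change there was -0.01 ± 0.09 and 0.65 ± 0.33.

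Acacb, the acetyl-CoA carboxylase that controls fatty acid uptake into mitochondria, was at 18.3 to 24.8 CPM in blast and 16.5 to 19.95 CPM in sham, with blast Hip_88 the 1 blast library inside the sham range (0.35 ± 0.11). Csf2rb, the receptor subunit shared by several myeloid growth factors, was at 1.13 to 2.56 CPM in blast and 0.40 to 1.24 CPM in sham (1.17 ± 0.34). Rbm46, an RNA-binding protein of germ cells, was at 1.28 to 3.05 CPM in blast and 0.68 to 1.61 CPM in sham (1.09 ± 0.30).

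The other 8 of the 20 genes were Map3k7, LOC103694876, Fam131a and LOC100912427, lower in blast, and Rps19, LOC103692173, LOC100912163 and Atn1, higher in blast. Their log2 fold changes were the largest of the 20, from -3.12 to 2.46, and so were their spreads: the within-group SD of log2 CPM was 0.85 to 1.36, against a median of 0.25 over all genes. LOC103694876 was at 1.07, 5.74, 0.97, 0.85 and 0.88 CPM in the 5 blast libraries. In the 5 sham libraries it was at 18.1, 1.32, 16.2, 11.7 and 18.4 CPM. Libraries were thus either low or more than 5 CPM, in both groups. In the anterior cortex its sign was opposite, at 2.99 ± 0.77.

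Map3k7 codes for TAK1, the kinase that passes signals from cytokine receptors to NF-kappaB and stress kinases. Its identifier in the deposited table (ENSRNOG00000047516, chromosome 9, 114022137 to 114079089) was at 0.71, 0.45, 1.42, 0.72 and 1.42 CPM in the 5 blast libraries. In the 5 sham libraries it was at 11.8, 8.26, 6.74, 14.2 and 0.65 CPM. A total of 4 sham libraries were high, while sham Hip_33 lay within the blast range, with 8 reads against 128 to 195 in the other sham libraries. Blast against sham gave a log2 fold change of -3.12 ± 0.62 with an adjusted p of 0.998 by edgeR's quasi-likelihood test, 0.000273 by DESeq2 and 0.0373 in the authors' deposited table. Without sham Hip_33 edgeR gave an adjusted p of 0.0239 and called this 1 gene. Over all 20 other settings the adjusted p ran from 0.000273 to 1.

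The chromosome of that identifier did not match the gene's name. RefSeq (assembly GRCr8) places Map3k7 on chromosome 5, between Epha7 and Bach2 with 1 ribosomal protein-like gene beside it. In the deposited table a gene named LOC100910771 (ENSRNOG00000005724, chromosome 5, 47186558 to 47244416) lies between the same 2 genes. LOC100910771 was at 5.42, 9.44, 4.38, 3.67 and 4.40 CPM in the 5 blast libraries and at 10.7, 9.52, 6.11, 10.7 and 5.65 CPM in the 5 sham libraries, a log2 fold change of -0.65 ± 0.29. Its groups overlapped through blast Hip_8, which lay above sham Hip_14 and sham Hip_33. With the counts of both identifiers summed, an analysis chosen after the data were seen, the log2 fold change was -1.40 and the adjusted p 0.998 by edgeR. How the authors' counting shared reads between the 2 identifiers was not tested.

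In the amygdala and cerebellum both groups held low and high libraries of the chromosome 9 identifier, while in the anterior cortex the sham libraries were split and no blast library was low. The level ran from 0.45 to 4.42 CPM in blast and 0.62 to 9.92 CPM in sham in the amygdala, from 2.83 to 7.97 and 0.38 to 6.08 CPM in the anterior cortex, and from 0.65 to 6.92 and 0.43 to 7.63 CPM in the cerebellum. A title number did not fix the level: the sham library numbered 33 was low in the hippocampus at 0.65 CPM and high in the anterior cortex at 6.08 CPM, and the one numbered 15 was at 14.2 and 0.91 CPM. The log2 fold changes in these regions were -1.16 ± 0.77, 0.91 ± 0.64 and 0.91 ± 0.68.

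**Figure D2:**
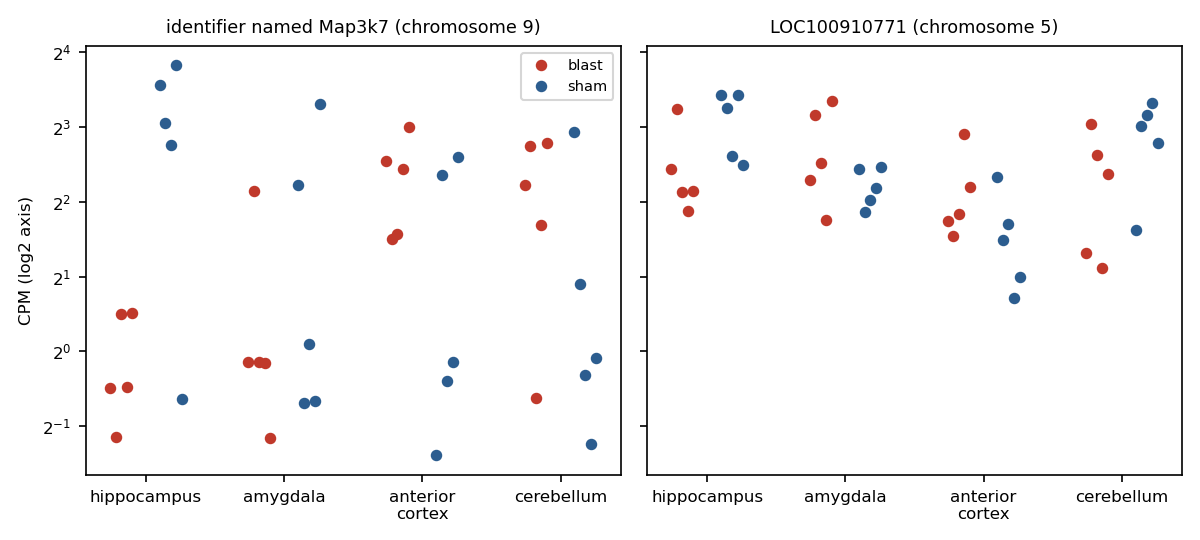
CPM (log2 axis) of the identifier named Map3k7 on chromosome 9 (left) and of LOC100910771 on chromosome 5 (right) in all 40 libraries, by region and treatment. On the left, libraries near 1 CPM or below and libraries above 2 CPM occur in every region, and 4 of the 5 hippocampus sham libraries are high while no hippocampus blast library is.

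Of the 34 TAK1 and NF-kappaB genes tested, 19 were higher and 15 lower in blast, with a median of 0.01. Chuk, a kinase of the IkappaB kinase complex, had 0.19 ± 0.08 (unadjusted p = 0.0393 by edgeR). Nfkbia, the inhibitor IkappaB-alpha and itself a target of NF-kappaB, was at 11.8, 16.2, 17.6, 15.02 and 16.7 CPM in the 5 blast libraries and at 18.5, 19.1, 19.4, 17.8 and 17.9 CPM in the 5 sham libraries. The groups did not overlap, by a narrow gap between blast Hip_22 and sham Hip_15. Its log2 fold change was -0.26 ± 0.12. Nfkbia lies on the list of glucocorticoid targets as well.

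The lists for the choroid plexus and for motile cilia had the largest medians. All 18 choroid plexus genes tested had log2 fold changes above 0, with a median of 1.48, and none had an unadjusted p under 0.05. Folr1, the folate receptor of the choroid plexus epithelium, was at 3.42, 113, 3.22, 6.95 and 83.3 CPM in the 5 blast libraries and at 53.01, 2.51, 2.16, 5.68 and 1.21 CPM in the 5 sham libraries. The 3 high libraries were blast Hip_8, blast Hip_666 and sham Hip_11. Without them the median was 0.06, with 12 of 18 genes higher, and without sham Hip_11 alone it was 4.56. Enpp2 (autotaxin) and Msx1 were high in the same 3 libraries, with log2 fold changes of 1.35 ± 1.08 and 1.01 ± 0.84.

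Ependymal and motile cilium genes were higher in blast as lists. Motile cilium genes, mostly axonemal dyneins and radial spoke or central pair proteins, were higher in 17 of 17 cases, with a median of 0.67. Of these, 3 had an unadjusted p under 0.05, where the share over all genes was 0.97%. The list was chosen with earlier results of these data known, so this share does not test it. Cfap206, a radial spoke protein, was at 5.63, 7.63, 6.25, 4.07 and 2.03 CPM in the 5 blast libraries, and at 2.71, 2.40, 4.05, 3.28 and 2.02 CPM in the 5 sham libraries. Blast Hip_666 lay at the bottom of the sham range although it was 1 of the 2 choroid plexus-rich blast libraries. The log2 fold change of Cfap206 was 0.82 ± 0.33, that of Spag6 0.88 ± 0.38 and that of Cfap43 0.66 ± 0.29. The groups overlapped for all 3 genes, and Spag6 was near the detection floor at 0.17 to 1.29 CPM.

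The cilium score, the mean log2 CPM of the 17 genes relative to all 10 libraries, was 0.16, 1.01, 0.01, -0.02 and 0.55 in the 5 blast libraries and 0.37, -0.19, -1.02, -0.07 and -0.80 in the 5 sham libraries. The highest libraries were the 3 choroid plexus-rich ones and the lowest were sham Hip_14 and sham Hip_33. The list median was 0.49 without the 3 libraries and 0.33 without these and sham Hip_14, with 14 of 17 genes still higher. Among single libraries left out, it was lowest without blast Hip_8, at 0.44. Ependymal genes were higher in 10 of 10 cases, with a median of 0.34. Pifo, which acts at the base of cilia, was near the detection floor, with 13 to 23 reads in blast and 1 to 12 in sham. Its blast libraries, at 0.98 to 1.56 CPM, were all above its sham libraries, at 0.08 to 0.85 CPM (1.29 ± 0.40, unadjusted p = 0.00746 by edgeR). The ependymal median was 0.14 without the 3 libraries, where 8 of 11 genes were higher, and 0.12 without blast Hip_8 alone. With the choroid plexus score as a covariate the median was 0.12 for ependymal genes and 0.42 for motile cilium genes. The part of choroid plexus and ventricle tissue in these lists was not tested further.

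Meningeal fibroblast genes were higher in 17 of 18 cases, with a median of 0.42. They were high in blast Hip_22 as well as in the 3 choroid plexus-rich libraries. Their summed level was 936.9 to 1382 CPM in those 3, 447.4 CPM in blast Hip_22 and at most 221.9 CPM in the other 6. Their score was 1.23 in blast Hip_22, 0.94 in sham Hip_11, 0.72 in blast Hip_8 and 0.46 in blast Hip_666, and -0.92 to 0.20 in the other 6. Without the 3 choroid plexus-rich libraries the median was 0.70, and without blast Hip_22 it was 0.01. Col3a1, a fibrillar collagen, was at 17.97 CPM in blast Hip_22 and 2.53 to 9.97 CPM in the other 9 libraries. Crabp2, a retinoic acid carrier, had 0.67 ± 0.45, and Cdh1, the cadherin of epithelia and of the arachnoid barrier, had 0.96 ± 0.52.

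**Figure D3:**
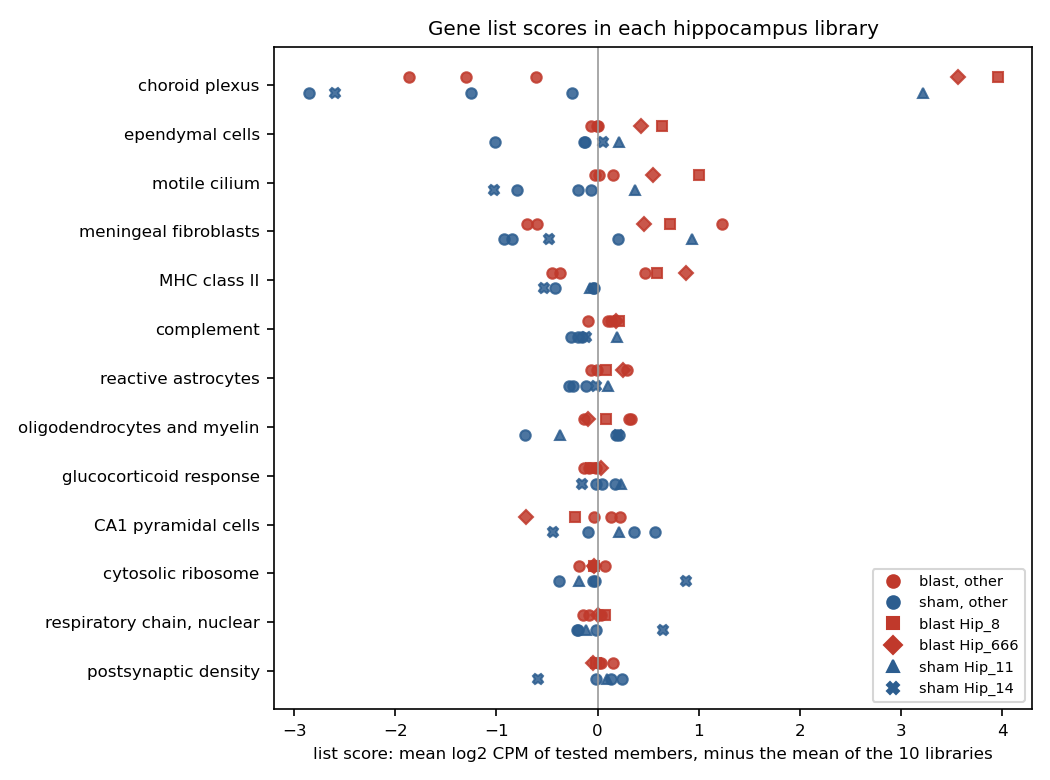
Scores of 13 gene lists (x axis, mean log2 CPM of the tested members minus the mean of the 10 libraries) in each hippocampus library. Blast libraries are red and sham libraries blue, with squares, diamonds and triangles for the 3 choroid plexus-rich libraries and crosses for sham Hip_14. Choroid plexus scores of these 3 lie between 3.21 and 3.95, and sham Hip_14 stands apart at 0.88 for cytosolic ribosome genes and -0.59 for postsynaptic density genes.

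Vessel gene lists had small positive medians. Of 16 endothelial genes 11 were higher, with a median of 0.11 that was 0.04 without blast Hip_8 and 0.17 without sham Hip_11. Slc16a1, the lactate transporter of brain endothelium, had 0.29 ± 0.13 (unadjusted p = 0.0427 by edgeR). Kdr, the main receptor for vascular endothelial growth factor, had 0.36 ± 0.17. Of 13 pericyte and smooth muscle genes 9 were higher, with a median of 0.10 that was 0.03 without blast Hip_22 or without sham Hip_14. Myl9, a smooth muscle myosin light chain, had 0.35 ± 0.15, and Pdgfrb, the receptor that marks pericytes, had 0.21 ± 0.09 (unadjusted p = 0.0395 and 0.0456 by edgeR).

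Genes of the oligodendrocyte and myelin list were higher in 22 of 23 cases, by a median of 0.15, and 0 had an unadjusted p under 0.05 by edgeR. Mobp, a protein of compact myelin, was at 799, 568, 498, 661 and 509 CPM in the 5 blast libraries and at 410, 585, 412, 665 and 357 CPM in the 5 sham libraries. The sham libraries split between 2 high and 3 low values, and the groups overlapped. This gave a log2 fold change of 0.32 ± 0.19, and Bcas1, made by oligodendrocytes as they mature, had 0.26 ± 0.14. The 1 lower member of the list was Mal2, at -0.18 ± 0.09, a gene that is not specific to myelin. The list's score was low in sham Hip_33 at -0.71 and sham Hip_11 at -0.37, and between -0.13 and 0.33 in the other 8 libraries. Without sham Hip_33 the median was 0.02, and without sham Hip_15 it was 0.24.

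Astrocyte identity genes were higher in 9 of 17 cases, with a median of 0.01, and genes of reactive astrocytes in 13 of 17, with a median of 0.18. S1pr3, a sphingosine-1-phosphate receptor that reactive astrocytes raise, was at 11.4, 12.2, 13.5, 9.64 and 10.8 CPM in the 5 blast libraries and at 8.71, 10.8, 8.90, 8.59 and 7.58 CPM in the 5 sham libraries. Blast Hip_88 lay inside the sham range and blast Hip_666 barely above sham Hip_13. Its log2 fold change was 0.37 ± 0.14 (unadjusted p = 0.0204 by edgeR). Gfap, the intermediate filament of astrocytes, was at 1282 ± 157 CPM in blast and 1093 ± 180 CPM in sham (0.23 ± 0.12). Cp, or ceruloplasmin, had 0.44 ± 0.22. The reactive list's median was 0.13 without the 3 choroid plexus-rich libraries, 0.31 without these and sham Hip_14, and 0.11 without blast Hip_22.

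Microglial identity genes were higher in 13 of 18 cases, with a median of 0.07 that was 0.20 without sham Hip_14 and 0.02 without sham Hip_15. P2ry12, the ADP receptor of resting microglia, went the other way, at 15.9 ± 2.07 CPM in blast and 19.98 ± 5.34 CPM in sham (-0.33 ± 0.18), and Cx3cr1, the fractalkine receptor, had 0.22 ± 0.17. Genes of microglial activation were higher in 12 of 19 cases, with a median of 0.13 that was -0.01 without the 3 choroid plexus-rich libraries and 0.06 without blast Hip_22. Spp1 (osteopontin) had 0.88 ± 0.42 near 1 CPM, and Gpnmb had 0.31 ± 0.16. No member of either list had an unadjusted p under 0.05 by edgeR's quasi-likelihood test.

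Genes of MHC class II, which presents antigen on myeloid cells, were higher in 6 of 7 cases, with a median of 0.57. That median was the value of RT1-Ba, which was near the detection floor at 0.42 to 2.50 CPM. The summed level of the 7 genes, which the most abundant members dominate, was not higher in blast as a group. It was 196.8 to 228.9 CPM in blast and 158.9 to 323 CPM in sham, highest in sham Hip_14. Most of it came from members other than Cd74, RT1-Ba and RT1-DMa. The list's score, which counts each gene equally, did not follow the sum. This score was -0.46 to 0.87 in blast and -0.53 to -0.03 in sham, lowest in sham Hip_14. Cd74, the invariant chain, was at 8.77, 23.0, 16.6, 14.8 and 19.1 CPM in the 5 blast libraries and at 16.8, 10.96, 6.47, 11.7 and 7.18 CPM in the 5 sham libraries. In each group the choroid plexus-rich libraries were the highest, and the other 3 blast libraries, Hip_4, Hip_22 and Hip_88, lay inside the sham range. The estimated log2 fold change was 0.63 ± 0.29 (unadjusted p = 0.0508 by edgeR). RT1-DMa reached 4.94 CPM in blast Hip_666 and stayed at or under 1.55 CPM in the other 9 libraries. The list's median was 0.26 without the 3 choroid plexus-rich libraries, 0.17 without these and sham Hip_14, and 0.35 without blast Hip_666.

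Complement genes were higher in 15 of 21 cases, with a median of 0.20. This median was 0.23 without the 3 choroid plexus-rich libraries or without sham Hip_14, 0.14 without blast Hip_8, 0.28 without sham Hip_11, and 0.145 with the choroid plexus score as a covariate. The list's score was highest in these 3 libraries, at 0.19 to 0.22, and was -0.27 to 0.13 in the other 7. Serping1, the C1 inhibitor, had 0.50 ± 0.22 (unadjusted p = 0.0416 by edgeR), and the receptor C3ar1 had 0.56 ± 0.34. Among cytokine and inflammasome genes 13 of 18 were higher, with a median of 0.10 that was 0.06 without blast Hip_4, with Icam1 at 0.35 ± 0.21 and Nlrp3 at 0.31 ± 0.19. Interferon response genes had a median of 0.14 with 15 of 24 higher. Their score was -0.69 in sham Hip_33 and -0.11 to 0.27 in the other 9 libraries, and without sham Hip_33 the median was 0.01. MHC class I genes had a median of 0.08 with 13 of 19 higher, and the median was 0.03 without sham Hip_33, 0.02 without the 3 choroid plexus-rich libraries and 0.20 without sham Hip_14.

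Targets of the glucocorticoid receptor had the lowest list median. Of 19 genes tested 15 were lower in blast and 4 higher, with a median of -0.23, and 5 of the lower genes had an unadjusted p under 0.05, where the share over all genes was 0.916%. They were Tsc22d3, Hif3a, Mertk, Nfkbia and Per1. This list too was chosen with earlier results of these data known, so the share does not test it. The median was -0.18 without sham Hip_14, -0.21 without the 3 choroid plexus-rich libraries and -0.14 without all 4, with 16 of 19 lower in the last case. Cdkn1a, the cell cycle inhibitor p21, was the highest member, at 0.96 ± 0.50.

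Tsc22d3 codes for the glucocorticoid-induced leucine zipper. It was at 43.0, 46.5, 52.4, 58.3 and 43.9 CPM in the 5 blast libraries and at 56.3, 54.9, 83.2, 62.8 and 50.9 CPM in the 5 sham libraries. The sham library farthest from the others was sham Hip_14. Blast against sham gave a log2 fold change of -0.34 ± 0.14, and -0.13 without sham Hip_14 and the 3 choroid plexus-rich libraries. Mertk, a receptor for engulfing dying cells, was at 30.1 to 39.7 CPM in blast and 37.2 to 47.9 CPM in sham (-0.23 ± 0.10), with blast Hip_666 inside the sham range.

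Hif3a, a hypoxia-inducible factor that can dampen the others and that glucocorticoids induce, was at 1.21, 1.59, 2.13, 1.84 and 1.15 CPM in the 5 blast libraries and at 2.71, 2.40, 0.95, 5.10 and 4.52 CPM in the 5 sham libraries. Sham Hip_14 was the lowest of the 10 and the other sham libraries were above all blast libraries. This gave a log2 fold change of -0.97 ± 0.40 (unadjusted p = 0.0325 by edgeR), and -1.21 without sham Hip_14. In the other regions it was -1.14 ± 0.34 (amygdala), -1.72 ± 0.38 (anterior cortex) and -1.33 ± 0.29 (cerebellum), with adjusted p = 0.459, 0.799 and 0.764 by edgeR in each region's own test. Of 24 hypoxia and angiogenesis genes 13 were higher and 11 lower in the hippocampus, with a median of 0.01, and Hif3a was the 1 member at an unadjusted p under 0.05. Aplnr, the apelin receptor, had 0.67 ± 0.31, and Vegfc had 0.68 ± 0.39.

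Among 22 clock genes 15 were lower, with a median of -0.06 that was -0.10 without sham Hip_14 and -0.03 without blast Hip_4. Per1, a clock repressor that glucocorticoids induce, was at 74.1, 68.7, 86.4, 76.4 and 87.3 CPM in the 5 blast libraries and at 101, 99.6, 71.1, 97.1 and 98.4 CPM in the 5 sham libraries. Sham Hip_14 alone fell within the blast range. The estimated log2 fold change was -0.25 ± 0.11, and -0.33 without sham Hip_14. Ciart, a repressor of the clock, had -0.42 ± 0.19, and Bhlhe40, another repressor, had -0.23 ± 0.12. The hour at which tissue was taken was not given in the sources used here.

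Of 40 genes of stress neuropeptides and monoamine receptors tested, 18 were higher and 22 lower, with a median of -0.05. Sstr1, an inhibitory receptor for somatostatin, was at 13.8, 8.46, 12.2, 12.5 and 11.1 CPM in the 5 blast libraries and at 17.3, 14.01, 18, 14.3 and 15.2 CPM in the 5 sham libraries. All blast libraries were under all sham libraries, by a narrow gap between blast Hip_4 and sham Hip_13. Blast against sham gave a log2 fold change of -0.44 ± 0.14 (unadjusted p = 0.0104 by edgeR), and -0.17 without the 3 choroid plexus-rich libraries and sham Hip_14. Npy1r, a neuropeptide Y receptor, had -0.23 ± 0.12, and the alpha-1D adrenergic receptor gene Adra1d had -0.16 ± 0.09.

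**Figure D4:**
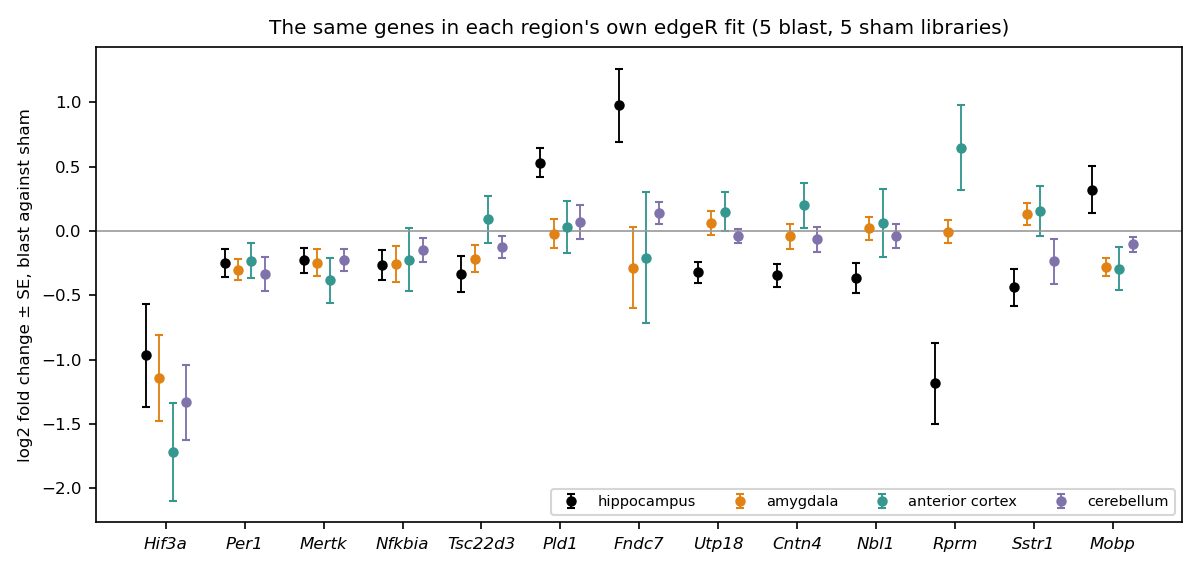
Log2 fold change of blast against sham (y axis, ± SE) for 13 genes in the fit of each region, n = 5 blast and 5 sham libraries. Hif3a, Per1, Mertk and Nfkbia are below 0 in all 4 regions, while Pld1, Utp18, Cntn4 and Nbl1 lie near 0 outside the hippocampus. Rprm was not tested in the cerebellum.

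Of the lists that mark the principal neurons, the CA1 list was lower in blast in 7 of 8 cases, with a median of -0.19 that was -0.08 without blast Hip_666. Of 8 dentate granule cell genes 6 were lower, with a median of -0.07, and without sham Hip_33, whose score was the highest at 0.35, the median was 0.01. Of 12 CA2 and CA3 genes 6 were lower, with a median of 0.03. None had an unadjusted p under 0.05. Wfs1, which codes for wolframin of the endoplasmic reticulum and marks CA1, was at 445, 354, 278, 476 and 266 CPM in the 5 blast libraries and at 322, 449, 386, 491 and 497 CPM in the 5 sham libraries. It was low in blast Hip_8, blast Hip_666 and sham Hip_11, the choroid plexus-rich libraries, and also in blast Hip_22. Its log2 fold change was -0.24 ± 0.18. Without the 4 libraries the CA1 median was -0.08. Fibcd1, a chitin receptor and CA1 marker, was at 12.6 to 14.8 CPM in sham Hip_11, Hip_15 and Hip_33 and 0.16 to 5.73 CPM in the other 7 libraries (-2.03 ± 1.02).

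Calb1, the calcium buffer of granule cells, was at 89.7 ± 13.3 CPM in blast and 101 ± 17.8 CPM in sham (-0.17 ± 0.13), and its sign turned without the 4 libraries, at 0.02. C1ql3 had -0.11 ± 0.15, and 0.00 without sham Hip_33. Of 17 interneuron genes 7 were higher and 10 lower, with a median of -0.01, and somatostatin (Sst) was at 23.4 ± 3.94 CPM in blast and 30.6 ± 14.6 CPM in sham (-0.39 ± 0.27). Genes of immature neurons and progenitors were higher in 7 of 11 cases, with a median of 0.16 that was 0.09 without sham Hip_33 and 0.24 without blast Hip_4. Mki67, a marker of dividing cells, was at 13.4 to 14.2 CPM in blast and 7.37 to 13.8 CPM in sham, with sham Hip_14 and sham Hip_15 low (0.28 ± 0.17). Top2a had 0.79 ± 0.41 near 1 CPM, highest in blast Hip_8 and blast Hip_666, and -0.11 without the 4 libraries.

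Synaptic gene lists had medians near 0 over all 10 libraries and moved with sham Hip_14. The medians were -0.04 for 23 genes of AMPA, NMDA and kainate receptors, 0.00 for 16 of GABA-A receptors, 0.01 for 21 of the postsynaptic density and -0.00 for 25 of vesicle release. The scores of sham Hip_14 were the lowest of the 10 libraries on these lists, at -0.40, -0.34, -0.59 and -0.34. Without it the medians were -0.10, -0.05, -0.09 and -0.05 in the same order, and without the 3 choroid plexus-rich libraries they were 0.00, 0.10, 0.07 and 0.04. Gria3, an AMPA receptor subunit, was at 237 ± 25.5 CPM in blast and 267 ± 19.8 CPM in sham (-0.17 ± 0.09), and Gria4 had -0.18 ± 0.09. Gabra4, the GABA-A subunit of extrasynaptic receptors in the dentate gyrus, was at 126 to 150 CPM in blast and 141 to 181 CPM in sham (-0.19 ± 0.08, unadjusted p = 0.0427 by edgeR). Of 26 genes of amyloid, tau and neurodegeneration 14 were higher and 12 lower, with a median of 0.00, and 22 genes of axonal injury and growth had a median of -0.02.

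Ribosomal and respiratory chain genes moved with sham Hip_14. Of 73 genes of the cytosolic ribosome 67 were lower in blast, with a median of -0.14, and of 39 nuclear genes of the respiratory chain 34 were lower, with a median of -0.11. Without sham Hip_14 both medians turned, to 0.08 and 0.10. The ribosome score was 0.88 in sham Hip_14 and -0.39 to 0.07 in the other 9 libraries. Rpl8 was at 95.3 CPM in blast Hip_88 and 1.89 to 6.47 CPM in the other 9, so its log2 fold change of 2.53 ± 0.93 rested on 1 library. Rps10 had -0.44 ± 0.22, with sham Hip_14 at 228 CPM and the others at 80.4 to 124 CPM. Mitochondrially encoded genes, by contrast, were higher in 11 of 13 cases, with a median of 0.10, and 0.13 without sham Hip_14. Their score was highest in blast Hip_4, at 0.44, and without that library the median was 0.01.

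**Figure D5:**
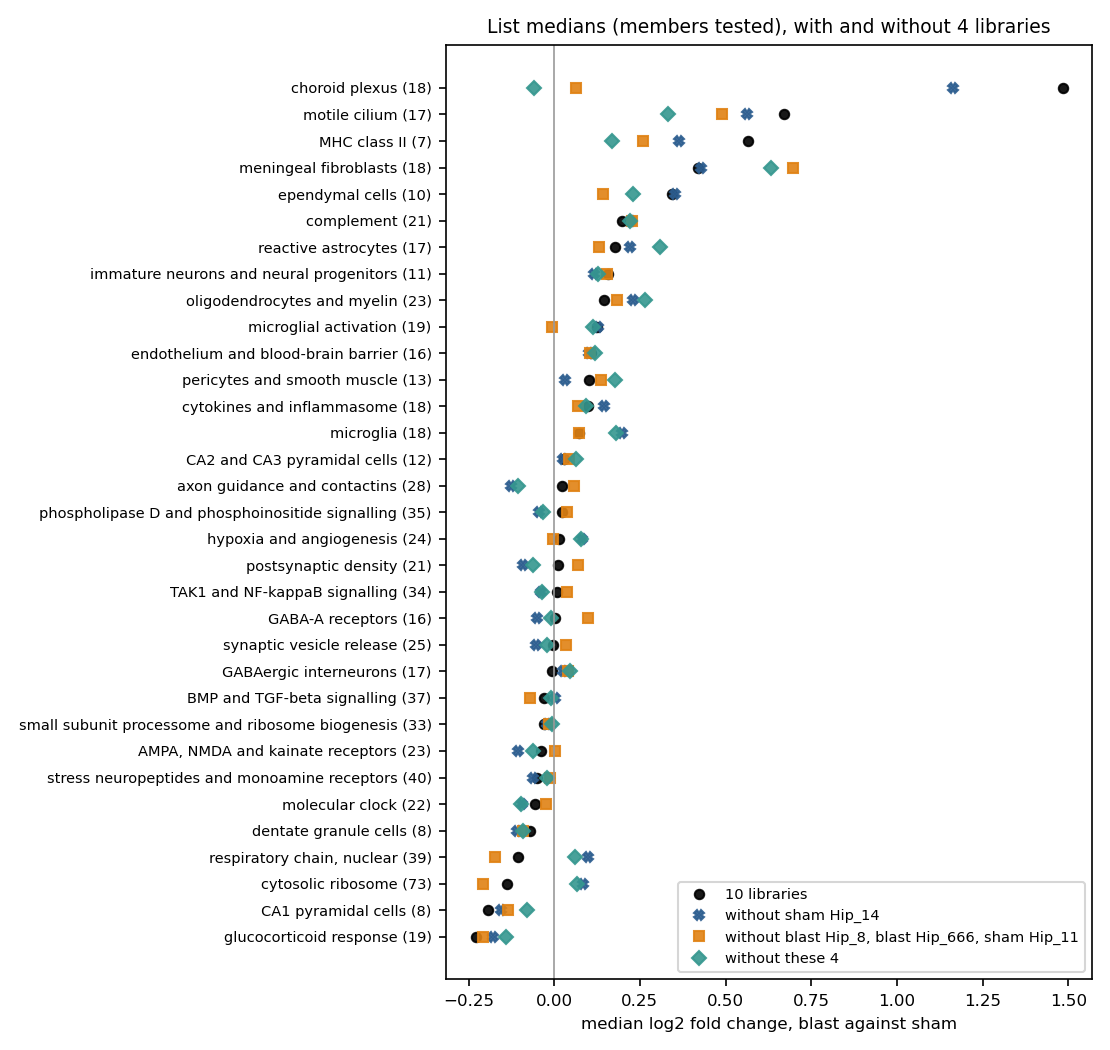
Median log2 fold change of blast against sham (x axis) for 33 gene lists, with the number of members tested in brackets, over all 10 libraries and with libraries left out. The choroid plexus median falls from 1.48 to 0.06 without blast Hip_8, blast Hip_666 and sham Hip_11, the ribosome and respiratory chain medians cross 0 without sham Hip_14, and the complement median is 0.20 to 0.23 at the 4 points plotted.

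In all, 54 gene lists were examined, holding 7 to 73 genes tested each. The median was above 0.1 for 15 lists, below -0.1 for 4 and in between for 35, and 0 lists had a member at an adjusted p under 0.05. Leaving out sham Hip_14 turned the sign of 11 medians, and leaving out the 3 choroid plexus-rich libraries turned 10. The sign of 25 medians turned without at least 1 single library, and 29 kept their sign without each of the 10 in turn.

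The blast effect of the hippocampus was tested against the mean effect of the amygdala, anterior cortex and cerebellum. Of 16378 genes, 0 (0%) differed at an adjusted p under 0.05 in limma's moderated test on voom weights, the smallest adjusted p was 0.695, and 1085 had an unadjusted p under 0.05. edgeR also called 0, with 1019 at an unadjusted p under 0.05. Utp18 had a difference of -0.40 ± 0.11 on the log2 scale (unadjusted p = 0.000733) and Mobp one of 0.55 ± 0.16 (unadjusted p = 0.00144). Mobp was below 0 in the other regions, at -0.28 ± 0.07 in the amygdala, -0.29 ± 0.17 in the anterior cortex and -0.11 ± 0.06 in the cerebellum. Pld1 differed by 0.50 ± 0.18, Rprm by -1.45 ± 0.53, Tamm41 by -0.45 ± 0.16 and Cntn4 by -0.39 ± 0.16. These genes were picked for their hippocampus values, so their part of the difference was fixed by the choice, and none passed (adjusted p = 0.695 each, limma). For Hif3a the difference was 0.66 ± 0.60, for Per1 0.06 ± 0.17 and for Mertk 0.04 ± 0.16.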

How the data were processed

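Libraries were made from total RNA with a NEBNext Ultra kit, per the labels' protocols. CASAVA is named in the submitters' processing notes. The aligner, counter, annotation and genome build were not given in the sources used here. The deposited tables hold raw read counts per gene, 1 table a region, with 0 count columns lacking a group. The authors' log2 fold changes and p-values were used only where named, and the gene lengths the authors deposited served the length correction.

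The counts of 15059 of 23485 identifiers that passed filterByExpr were tested with edgeR 4.0.16 (TMM, quasi-likelihood, Benjamini-Hochberg, threshold 0.05) in R 4.3.3. limma 3.58.1, DESeq2 1.42.0 and sva 3.50.0 gave alternatives, and limma the region difference. Scores used log2 CPM with a prior count of 2. CPM uses TMM-scaled library sizes. The scripts were tested on simulated data. The 20 replicate pairs all differed by more than sampling noise (chi-square per degree of freedom at least 7.24).

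Genes were named as the 10 smallest p-values in each direction and up to 3 members of each described list. Of 1283 list names 1218 were in the table, and the rest were not analysed here. The members and lists were chosen with earlier results of these data known. Tables were normalized separately by region, so levels set across regions are approximate. 1 amygdala count column matched its group but no title and entered as an unnumbered library.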

Additional observations from a re-analysis of the deposited data

Results flagged for a closer look

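Each of 20 genes and 30 lists was checked in both groups. Of these 100 groups of 5, 11 held a library farther from the rest than Dixon's 95% limit. That limit flags about 1 in 20 groups of independent normal values. The genes were chosen by p and all share the same libraries with the lists, so an excess over that rate was not tested. Sham Hip_14 was high for cytosolic ribosome genes (score 0.877, nearest -0.03) and for ribosome biogenesis genes (0.0914, nearest 0.02). It was low for axon guidance genes (-0.59, nearest -0.01) and phosphoinositide signalling genes (-0.325, nearest -0.02). Sham Hip_33 was low for ependymal genes (-1.015, nearest -0.13) and hypoxia genes (-0.279, nearest 0.00). Blast Hip_22 was high for hypoxia genes (0.112, nearest 0.02) and for Fndc7 (8.63 CPM, nearest 5.63). Blast Hip_88 was high for stress neuropeptide and receptor genes (0.0495, nearest -0.01). Blast Hip_4 was high for LOC100912163 (8.27 CPM, nearest 3.02) and blast Hip_8 for LOC103694876 (5.74 CPM, nearest 1.07).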

How the results depend on the processing

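No gene was called under any setting except 1, Map3k7, by DESeq2 (1), in the authors' deposited table (1) and without sham Hip_33, so leaving out single libraries gave 0 to 1 called genes. Genes at an unadjusted p under 0.05 numbered 284, 616 with no filter on low counts, 431 by DESeq2, 624 without sham Hip_14, 494 higher and 172 lower without sham Hip_11, and 192 to 396 without any other single library. For the region difference they numbered 1085, 703 (without blast Hip_8) to 1682 (without sham Hip_15) with 1 hippocampus library left out and 649 without the 3 choroid plexus-rich libraries, and 0 genes were called in each case. With the title number as a replicate block it called 0 genes (1100 at an unadjusted p under 0.05), and the correlation within numbers was 0.008, so the block changed no call. Within the hippocampus blast and sham share 0 title numbers, so no pairing applied there.

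Of 102 genes named, 6 changed sign under some alternative: Enpp2 (-0.11) and Msx1 (-0.16) with 1 surrogate variable, Msx1 (-0.042) with the choroid plexus score as a covariate, C1ql3 (0.0037 without sham Hip_33, the lowest without any 1 library being -0.22), and Calb1 (0.019), Top2a (-0.11) and Gabrg3 (-0.12) without the 4 libraries. Of 570 alternative list medians 4 moved by more than the SD between libraries, 1 for choroid plexus (4.56 without sham Hip_11) and 3 for stress neuropeptides and monoamine receptors. For the latter list the SD of the score was small, at 0.03 in blast and 0.06 in sham. Its median went from -0.05 over all 10 libraries to 0.01 without blast Hip_8. The cause of these shifts was not tested. With a prior count of 0.5 the difference of scores between blast and sham moved by more than that SD for 0 lists. With 5 libraries a group the median standard error was 0.155, and the 95% interval lay within 1.5-fold either way for 65.7% of the genes tested.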
